A study of Mus musculus with 8 samples.

Results

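The genes described here encode the subunits of the mitochondrial respiratory chain and of ATP synthase that are made from nuclear genes. They were taken by symbol (Nduf with a, b, c, s or v and a number, Uqcr, Cox followed by 4 to 8, and Atp5), as protein-coding genes that averaged 1 FPKM or more over vehicle replicates 1 to 3. FPKM are fragment counts divided by transcript length and by the number of fragments in the library. Of 55450 genes in the larger expression table, 93 matched by symbol, 81 of them protein-coding, and 75 passed the threshold. These 75 were 36 genes of complex I, 8 of complex III, 14 of complex IV and 17 of ATP synthase. The lowest members were Cox7a1 at a vehicle mean of 1.05 FPKM, Atp5s at 1.24 FPKM and Cox6b2 at 1.65 FPKM. The 6 protein-coding matches left out were Ndufa4l2 at 0.0759 FPKM, Cox8b at 0.0538 FPKM, and Cox4i2, Cox7b2, Cox8c and a second gene model named Atp5o at 0 FPKM. The symbols are not a perfect guide to function. Ndufa4 counts here under complex I although its protein is known as a complex IV subunit, Cox7a2l encodes a factor that joins complexes into supercomplexes, and Atp5s encodes a factor associated with ATP synthase rather than a core subunit. Complex II, which has its own gene names, and the subunits Ndufab1 and Cyc1 fall outside the symbols and are described separately.

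The respiratory chain sits in the inner mitochondrial membrane. Complex I takes electrons from NADH, complex III passes them from ubiquinol to cytochrome c, and complex IV hands them to oxygen, while all 3 complexes pump protons that ATP synthase then uses to make ATP. Most subunits are nuclear genes translated in the cytosol and imported, and a small set is encoded in mitochondrial DNA, so a working complex needs products of both genomes. In dendritic cells, the balance between oxidative phosphorylation and glycolysis is known to shift after strong innate stimulation.

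Cells from the bone marrow of SS dry eye mice, a model of the eye disease of Sjögren's syndrome, were grown into cultures labelled as dendritic cells. The cultures received recombinant S100A8/A9, a pair of calcium-binding proteins that myeloid cells release in inflammation, or PBS, called vehicle here. Each group had 4 libraries, numbered 1 to 4, and both groups came from the same disease-model marrow, with no culture from healthy mice used here. The labels give no dose, time, sex, age or strain, and they do not say whether the numbered libraries came from separate mice or cultures, so the p-values below measure the spread between these libraries, which may be technical. Replicates 1 to 3 of both groups stand in 1 table and replicate 4 of both groups in a second, separately made table of 24848 genes. Tests used replicates 1 to 3, and replicate 4 is given beside them.

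The label was checked against marker genes. Of 14 dendritic cell markers 9 were detected well enough to test, with Itgax between 47.2 and 66.9 FPKM over the 6 libraries of the first table, while Cd209a was at 0 in all 6 and Xcr1 and Clec9a stayed under 0.3 FPKM. The dendritic cell list summed to 3457 to 4802 FPKM with S100A8/A9 and 3212 to 4769 FPKM with vehicle. All 11 macrophage markers were tested, with a summed level of 925 to 1181 FPKM with S100A8/A9 and 826 to 1118 FPKM with vehicle. A sum is set mainly by its highest genes, and the mean log2(FPKM + 1) per gene ran the other way. It was 3.64 to 3.96 with S100A8/A9 and 3.68 to 3.93 with vehicle for the dendritic cell list. For the macrophage list it was 4.90 to 6.09 and 4.79 to 5.98 in the same order of groups. Of 14 neutrophil markers 5 were tested, and the list summed to 126 to 226 FPKM with S100A8/A9 and 125 to 235 FPKM with vehicle. Ly6g, Camp and Ltf were under 1 FPKM in every library, so nearly all of this sum came from other genes of the list. Neutrophil markers as a list were therefore not absent. The sample titles carry an abbreviation usually read as macrophages, and the cell type field names dendritic cells. In such bulk RNA, fewer cells of a type and less RNA per cell cannot be told apart. Depth, estimated from the smallest values, was roughly 22800000 to 25700000 reads in replicates 1 to 3, and 33400000 reads for S100A8/A9 and 31900000 reads for vehicle in replicate 4.

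The subunit genes were expressed well above the typical gene. Their median vehicle level was 22.5 FPKM, against 6.64 FPKM over the 11387 genes tested, and together they made up 0.764%, 0.822% and 0.823% of all FPKM in S100A8/A9 replicates 1 to 3, against 0.798%, 0.818% and 0.787% in vehicle replicates 1 to 3. In replicate 4 the share was 0.932% with S100A8/A9 and 0.946% with vehicle. The groups overlapped in this share, and the second table gave a higher share in both.

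Complex I genes had the lowest levels of the 4 sets. The median of the vehicle means was 16.2 FPKM for complex I, 32.3 FPKM for complex III, 40.2 FPKM for complex IV and 38.4 FPKM for ATP synthase. Taken library by library, complex I had the lowest median and complex IV the highest in 8 of 8 libraries. The places of complex III and ATP synthase changed, with complex III above ATP synthase in vehicle replicate 1 and in both replicate 4 libraries. These are levels per length, so they compare transcripts and not protein or complexes.

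**Figure D1:**
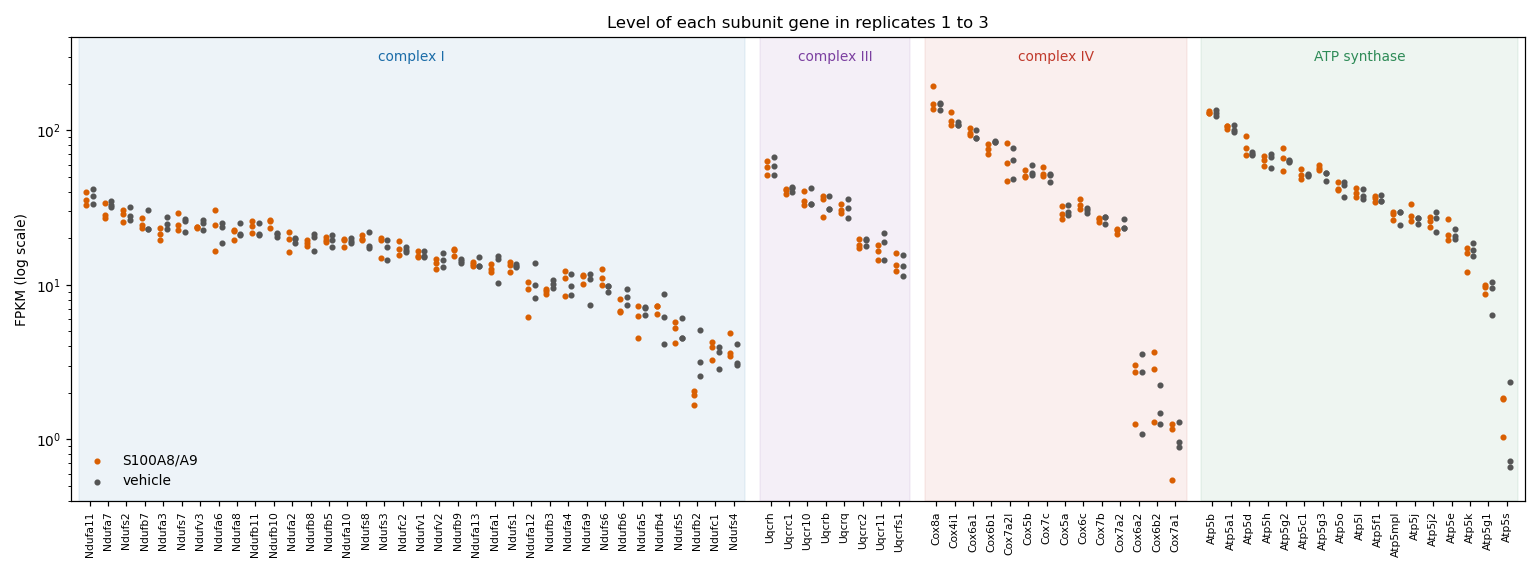
Level of each of the 75 subunit genes in FPKM on a log axis, 1 point for each of replicates 1 to 3, with S100A8/A9 in orange left of vehicle in grey, and genes ordered by mean within each complex. Complex I genes spread between 3.41 and 37.5 FPKM in their vehicle means, Cox8a at 144 FPKM and Atp5b at 129 FPKM stand highest, and the points of both groups overlap for most genes.

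Within complex I, the 7 core subunits, which carry the flavin and the iron-sulfur clusters that move electrons, had a median vehicle mean of 17.2 FPKM, against 14.3 FPKM for the 29 other genes. The core subunits spanned a narrow 2.16-fold range, and the others 11.0-fold. Ndufa11, an accessory subunit of the membrane arm, was the highest complex I gene in replicates 1 to 3. It had 33.0, 39.6 and 35.1 FPKM in S100A8/A9 replicates 1 to 3 and 37.7, 41.6 and 33.2 FPKM in vehicle replicates 1 to 3. This rank did not hold in replicate 4, where Ndufa11 had 13.7 FPKM with S100A8/A9 and 12.7 FPKM with vehicle, against 68.4 and 76.5 FPKM for Ndufa2. Ndufs4, an accessory subunit whose loss in mice is used as a model of Leigh syndrome, had the lowest vehicle mean at 3.41 FPKM. Ndufc1 at 3.48 FPKM and Ndufb2 at 3.61 FPKM were close to it. Ndufs4 had 4.87, 3.46 and 3.62 FPKM with S100A8/A9 and 4.13, 3.01 and 3.10 FPKM with vehicle. With S100A8/A9 Ndufb2 was lower, at 1.68, 1.92 and 2.04 FPKM. In replicate 4 Ndufb2 had 0.362 FPKM with S100A8/A9 and 0.546 FPKM with vehicle, against 13.0 and 12.7 FPKM for Ndufs4. The groups overlapped for Ndufa11 and for Ndufs4.

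Complex III spanned less. Uqcrh, the acidic hinge protein that helps dock cytochrome c, was highest with 51.6, 63.1 and 57.5 FPKM in S100A8/A9 replicates 1 to 3 and 51.3, 58.7 and 66.9 FPKM in vehicle replicates 1 to 3. Uqcrfs1, the Rieske iron-sulfur protein, had the lowest vehicle mean, with 12.3, 13.4 and 16.1 FPKM with S100A8/A9 and 11.3, 13.2 and 15.5 FPKM with vehicle. In replicate 3 Uqcr11 was lower, at 14.6 FPKM with S100A8/A9 and 14.4 FPKM with vehicle. In replicate 4 Uqcrfs1 had 59.2 FPKM with S100A8/A9 and 62.8 FPKM with vehicle, above Uqcr11 at 35.3 and 37.6 FPKM, so its rank held only in replicates 1 and 2. Neither Uqcrh nor Uqcrfs1 separated the groups.

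In ATP synthase, the 5 genes of the F1 head, where ATP is made (Atp5a1, Atp5b, Atp5c1, Atp5d and Atp5e), had a median vehicle mean of 70.7 FPKM, against 31.9 FPKM for the 12 others. The levels overlapped, since Atp5e was at 21.1 FPKM and Atp5c1 at 51.2 FPKM, below Atp5h at 64.4 FPKM and Atp5g2 at 63.0 FPKM. Atp5b, the catalytic beta subunit, had 133, 129 and 129 FPKM in S100A8/A9 replicates 1 to 3 and 134, 130.0 and 123 FPKM in vehicle replicates 1 to 3. Atp5a1, the alpha subunit that pairs with it in equal number in the complex, had 106, 102 and 106 FPKM with S100A8/A9 and 108, 99.7 and 98.0 FPKM with vehicle. Atp5b was above Atp5a1 in 6 of 6 libraries of the first table and in 0 of 2 of the second, where Atp5a1 had 173 FPKM with S100A8/A9 and 175 FPKM with vehicle. The order of this pair therefore differed between the tables, within which each gene's length and counting may have been set differently.

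Several subunits exist as alternative genes, and the cultures used mainly the broadly expressed ones. Cox4i1, the common form of the largest nuclear-encoded subunit of complex IV, had 108, 115 and 132 FPKM in S100A8/A9 replicates 1 to 3 and 108, 109 and 113 FPKM in vehicle replicates 1 to 3, while Cox4i2, the form known from lung and low oxygen, was listed at 0 in 6 of 8 libraries. Cox8a, the common form of subunit 8, had 149, 138 and 193 FPKM with S100A8/A9 and 149, 136 and 147 FPKM with vehicle, with Cox8b at 0.162 FPKM in vehicle replicate 2 and at 0 in the other libraries of the first table. Ndufa4 had 11.1, 12.2 and 8.45 FPKM with S100A8/A9 and 11.8, 9.86 and 8.56 FPKM with vehicle, and its low-oxygen relative Ndufa4l2 stayed under 0.4 FPKM. Cox7b averaged 26.3 ± 0.877 FPKM with S100A8/A9 and 26.7 ± 1.62 FPKM with vehicle (SD, n = 3 each), and Cox7b2 was at 0 in all 6.

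The forms known from heart and skeletal muscle or from testis were present at low levels beside their common partners. Cox6a1 supplied 97.7% ± 0.912 of the summed Cox6a FPKM with S100A8/A9 and 97.4% ± 1.33 with vehicle (SD, n = 3 each), the muscle form Cox6a2 giving the rest. Cox6b1 supplied 96.7% ± 1.41 of Cox6b with S100A8/A9 and 98.1% ± 0.569 with vehicle, beside the testis form Cox6b2. Both shares overlapped between the groups. In the Cox7a family, Cox7a2l held 72.4% ± 6.09 with S100A8/A9 and 70.8% ± 4.69 with vehicle, Cox7a2 most of the rest, and the muscle form Cox7a1 1.23% ± 0.643 and 1.18% ± 0.123 in the same order of groups. At the lowest of these levels the values rest on few reads, since Cox7a1 had an estimated 7.33 to 17.3 reads with S100A8/A9 and 11.6 to 15.8 reads with vehicle in replicates 1 to 3.

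Atp5g1, Atp5g2 and Atp5g3 encode the same mature c subunit of the membrane rotor with different import signals. Atp5g2 gave 49.4% ± 4.80 of their summed FPKM with S100A8/A9 and 51.4% ± 2.00 with vehicle. Atp5g3 gave 43.4% ± 4.76 with S100A8/A9 and 41.6% ± 0.621 with vehicle, and Atp5g1 gave 7.13% ± 0.124 with S100A8/A9 and 7.09% ± 1.38 with vehicle (SD, n = 3 each). Atp5g2 was above Atp5g3 in 2 of 3 libraries with S100A8/A9 and in 3 of 3 with vehicle, and Atp5g3 was the higher in both libraries of the second table. The share of each gene overlapped between the groups.

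Promoters were read to see what the members share outside their names. RefSeq promoter windows of GRCm38.p6, from 250 bases before to 50 bases after a gene's start, were matched to 61 of the 75 genes, which gave 66 promoters. They were searched on both strands for 1 fixed word for each of 3 factors known to act on respiratory genes: GCATGCGC or GCGCATGC for NRF1 (these overlap each other, so 1 palindromic stretch of 10 bases gives both), CCGGAAG or CTTCCGG for GABP, and AAGATGGC or GCCATCTT for YY1. The NRF1 word was in 9 promoters (13.6%), against 5.53% of the 10556 promoters of tested genes and 2.71% of all 32851 promoters. The GABP word was in 14 (21.2%), against 19.1% and 8.86%. The YY1 word was in 9 (13.6%), against 4.94% and 2.75%. At least 1 of the words was in 27 (40.9%), against 26.9% of promoters of tested genes. Expressed genes as a whole carried these words more often than all genes, and the members' share of the GABP word lay near that of the tested genes. A word is a match of letters and not a site of binding.

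In 8 of the 9 promoters with the YY1 word it lay on the gene's strand 20 to 40 bases after the start (88.9%), against 25% of 540 such words in promoters of tested genes and 16.5% of 927 in all promoters. That window was chosen after the positions were seen. The word contains ATG, and in the same 8 promoters this ATG was the annotated start codon of the gene. In promoters of tested genes, 43% of the 377 YY1 words on the gene's strand lay over an annotated start codon. The 6 windows below were chosen to show the NRF1 word and the YY1 word, with the searched words in capitals, written 5′ to 3′ on the gene's strand. Cox6a1 (chr5:115348909-115349208, minus strand), Uqcr11 (chr10:80406772-80407071, minus strand) and Uqcrc1 (chr9:108936398-108936697, plus strand) hold the NRF1 word, the first 2 with a GABP word as well. Ndufs4 (chr13:114388045-114388344, minus strand), Ndufs6 (chr13:73328433-73328732, minus strand) and Atp5j2 (chr5:145191492-145191791, minus strand) hold the YY1 word over the start codon. Windows with the GABP word alone, and that of Atp5j, whose YY1 word lies elsewhere, are not printed.
Cox6a1: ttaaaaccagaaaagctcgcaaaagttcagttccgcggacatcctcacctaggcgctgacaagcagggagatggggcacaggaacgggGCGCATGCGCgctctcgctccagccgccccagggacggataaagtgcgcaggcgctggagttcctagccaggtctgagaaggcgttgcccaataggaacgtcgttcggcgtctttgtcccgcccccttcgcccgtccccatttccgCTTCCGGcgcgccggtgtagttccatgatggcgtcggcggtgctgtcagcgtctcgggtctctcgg
Uqcr11: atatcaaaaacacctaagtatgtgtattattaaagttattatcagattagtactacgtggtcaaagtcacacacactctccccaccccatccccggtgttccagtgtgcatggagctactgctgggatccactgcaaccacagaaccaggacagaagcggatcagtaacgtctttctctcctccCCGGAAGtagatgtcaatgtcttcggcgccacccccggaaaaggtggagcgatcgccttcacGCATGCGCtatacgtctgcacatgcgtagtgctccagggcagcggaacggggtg
Uqcrc1: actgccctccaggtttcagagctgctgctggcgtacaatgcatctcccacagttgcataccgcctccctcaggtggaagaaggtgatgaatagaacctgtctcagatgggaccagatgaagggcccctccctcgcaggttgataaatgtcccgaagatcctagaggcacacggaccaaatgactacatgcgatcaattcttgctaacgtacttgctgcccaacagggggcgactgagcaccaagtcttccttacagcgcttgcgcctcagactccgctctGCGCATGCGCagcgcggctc
Ndufs4: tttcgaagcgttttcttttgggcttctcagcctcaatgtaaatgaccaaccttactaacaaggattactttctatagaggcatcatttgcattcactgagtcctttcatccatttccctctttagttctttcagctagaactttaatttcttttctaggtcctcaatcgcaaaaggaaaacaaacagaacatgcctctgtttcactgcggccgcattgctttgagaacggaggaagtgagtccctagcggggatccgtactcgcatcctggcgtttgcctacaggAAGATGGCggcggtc
Ndufs6: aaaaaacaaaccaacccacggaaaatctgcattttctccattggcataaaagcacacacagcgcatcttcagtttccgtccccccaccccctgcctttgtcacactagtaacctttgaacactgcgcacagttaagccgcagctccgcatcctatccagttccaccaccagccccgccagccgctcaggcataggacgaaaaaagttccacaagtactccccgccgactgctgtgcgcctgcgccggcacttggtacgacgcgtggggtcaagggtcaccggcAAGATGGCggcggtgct
Atp5j2: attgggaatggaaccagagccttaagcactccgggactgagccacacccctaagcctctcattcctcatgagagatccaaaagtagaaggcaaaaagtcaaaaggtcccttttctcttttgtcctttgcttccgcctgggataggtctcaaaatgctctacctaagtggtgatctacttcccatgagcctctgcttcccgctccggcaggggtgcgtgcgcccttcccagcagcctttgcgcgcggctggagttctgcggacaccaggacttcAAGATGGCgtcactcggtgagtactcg
Cox6a1 and Uqcrc1 both show the 10-base stretch that reads as the NRF1 word on either strand, 162 bases before the start in Cox6a1 and 30 bases after it in Uqcrc1. Of these examples, Cox6a1 had a vehicle mean of 92.7 FPKM, Uqcrc1 41.7 FPKM and Uqcr11 18.4 FPKM, while the 3 genes with the YY1 word had 3.41 FPKM (Ndufs4), 9.53 FPKM (Ndufs6) and 26.2 FPKM (Atp5j2).

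No change of a subunit gene with S100A8/A9 was detected. In limma on log2(FPKM + 1) of replicates 1 to 3, 0 of 75 members passed an adjusted p of 0.05 with group as the only term, where 0% of the 11387 tested genes were called. In the fit blocked on replicate number 0 of 75 members were called, where 0.518% of tested genes were, 57 of them higher (0.501%) and 2 lower (0.0176%). The blocked count over all genes was 42, 95 and 5 without replicates 1, 2 and 3, and 3 under each of 3 other scalings, and 0 members were called in any of these fits. At an unadjusted p under 0.05 the counts were 2 of 75 without the block, beside 3.02% of all genes, and 8 of 75 with it, beside 7.97%. The smallest adjusted p among the members in limma was 0.204 with the block and 1.00 without it. Of 10 interferon-stimulated genes, a list picked from earlier results of these data and so not independent evidence of its direction, 9 rose in the blocked fit, and 0 were called with group only. With 3 genes called in all under each of those other scalings, most of the 9 were not called there. The list summed to 480, 356 and 173 FPKM in S100A8/A9 replicates 1 to 3, against 129, 133 and 71.0 FPKM in vehicle replicates 1 to 3, and in replicate 4 to 52.7 FPKM with S100A8/A9 and 45.1 FPKM with vehicle. Ifit1, an RNA-binding antiviral protein, had 36.1, 32.6 and 13.8 FPKM in S100A8/A9 replicates 1 to 3, against 9.42, 9.93 and 4.65 FPKM in vehicle replicates 1 to 3 (limma with block, adjusted p = 0.00917).

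The absence of calls came with fairly narrow intervals. The median 95% interval of a member reached 1.21-fold to either side of its estimate without the block and 1.14-fold with it. For 69 of 75 members (92.0%) the whole interval lay within 1.5-fold of no change without the block, beside 78.3% of all tested genes, and for 72 (96.0%) with it, beside 90.5%. The 3 members outside that band with the block were Ndufb2, Cox6b2 and Atp5s. Without the block Ndufa12, Ndufb4 and Cox6a2 fell outside as well. Of the 75 point estimates, 48 (64.0%) lay within 0.1 of 0 on the log2 scale, beside 61% of all genes. These intervals are not adjusted for the number of genes, and the added 1 FPKM shrinks the differences of low genes. Members stood above the typical tested gene in level, and the shares over all genes were not matched for level.

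**Figure D2:**
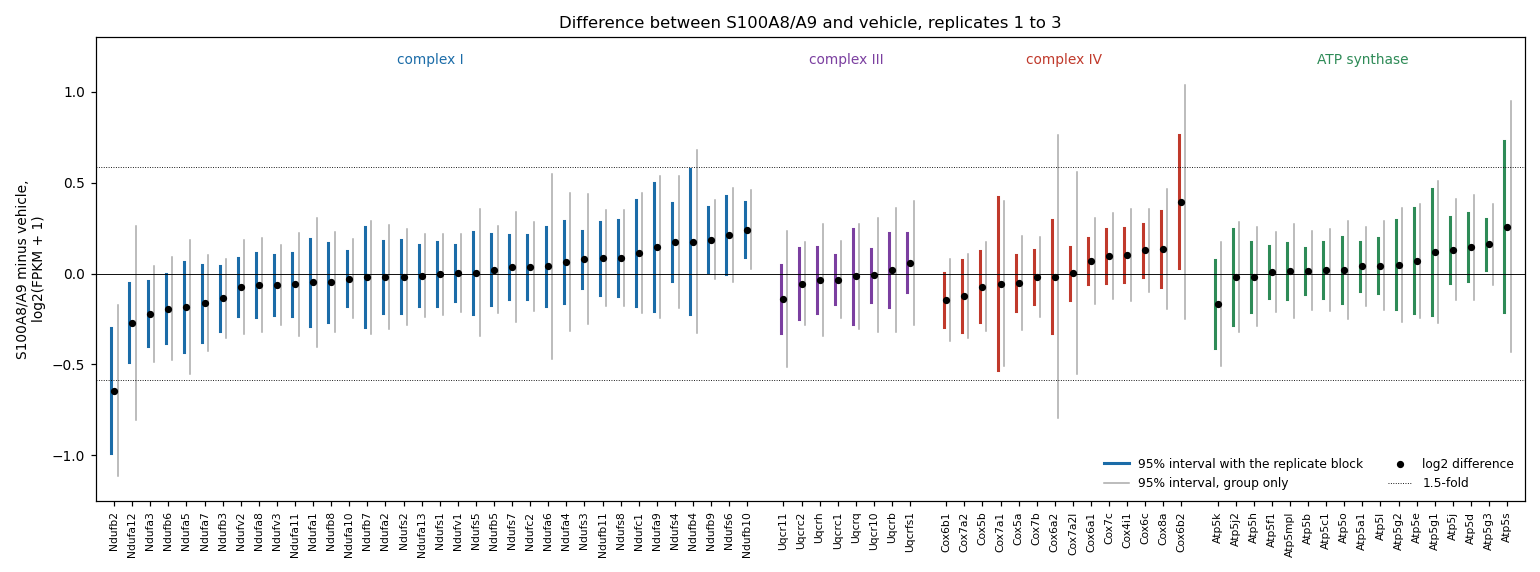
Difference between S100A8/A9 and vehicle for each of the 75 genes, in log2(FPKM + 1) over replicates 1 to 3, with limma 95% intervals with the replicate block (coloured) and with group only (grey), ordered by size within each complex, and dotted lines at 1.5-fold. Ndufb2 lies lowest at -0.64 and Cox6b2 highest at 0.39, and most intervals stay inside the dotted lines.

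By complex, the median log2 difference (S100A8/A9 minus vehicle) was -0.0078 for complex I, -0.024 for complex III, -0.0078 for complex IV and 0.040 for ATP synthase, beside 0.025 over all tested genes. Over all 75 members it was 0.0049, with 40 genes higher and 35 lower. All of these medians lie within 0.1 of 0, and each took the other sign under at least 1 other scaling or with a library left out. ATP synthase gave -0.018 under upper-quartile scaling and -0.039 under quantile normalization.

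Pair by pair, the medians did not keep a sign either. Complex I gave -0.093, 0.0069 and 0.046 in pairs 1 to 3 and -0.080 in pair 4. Complex III gave -0.047, 0.083 and -0.034, and -0.091 in pair 4. Complex IV gave -0.0018, 0.0099 and 0.10, and -0.062 in pair 4. ATP synthase gave -0.024, -0.022 and 0.16, and -0.038 in pair 4. All 4 sets were thus lower with S100A8/A9 in pairs 1 and 4, and no set had the same sign in every pair. In pair 3, 16 of 17 ATP synthase genes were higher with S100A8/A9, beside 66.7% of all tested genes, and in pair 4, 14 of these 17 were lower. Over all members, 19 of 75 were higher and 56 (74.7%) lower with S100A8/A9 in pair 4, beside 55% and 45% of the 11180 tested genes listed there, and 47 of 75 were lower in pair 1, beside 51.6%.

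**Figure D3:**
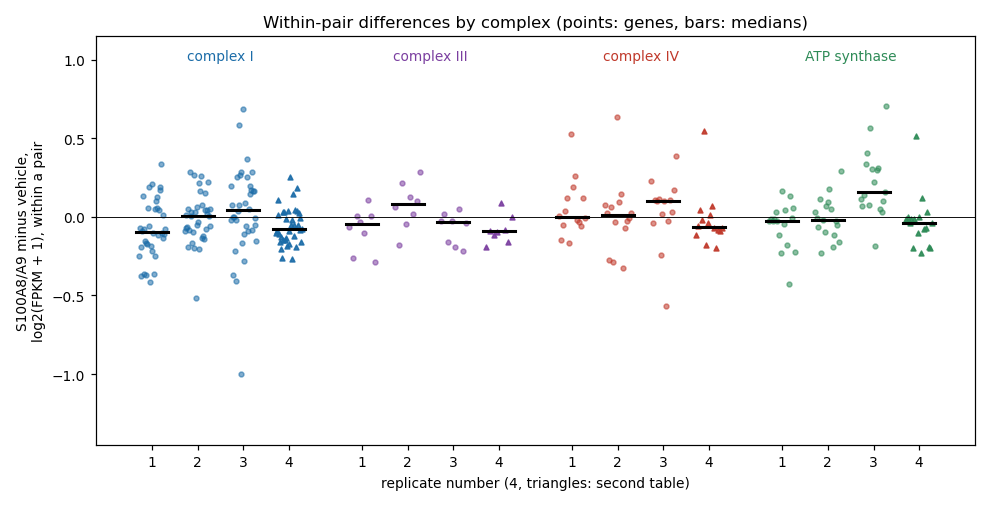
Within-pair difference between S100A8/A9 and vehicle in log2(FPKM + 1), by complex and replicate number, with a point for each gene (triangles for replicate 4, from the second table) and a bar at each median. The ATP synthase median is 0.16 in pair 3 and between -0.038 and -0.022 in the other pairs.

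Members kept 1 direction in pairs 1 to 3 about as often as all tested genes. In pairs 1 to 3, 12 of 75 (16.0%) were higher in all 3, beside 19.4% of tested genes, and 9 (12.0%) were lower in all 3, beside 9.62%. With pair 4 added, 3 of 75 were higher in all 4 pairs, beside 11.7% of tested genes, and 6 of 75 were lower in all 4, beside 4.54%. The 3 were Ndufs4, Cox6c, a small subunit of complex IV, and Atp5j, the coupling factor 6 of ATP synthase. The 6 were Ndufa3, Ndufb2, the core subunit Ndufv2, the complex III core protein Uqcrc1, Cox6b1 and Cox7a2. These genes were picked by their directions and are a description.

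Ndufb2, an accessory subunit of the membrane arm of complex I (ENSMUSG00000002416, chr6:39592574-39603382, plus strand, mm10), showed the largest difference. It had 1.68, 1.92 and 2.04 FPKM in S100A8/A9 replicates 1 to 3, against 2.56, 3.18 and 5.09 FPKM in vehicle replicates 1 to 3. The groups did not overlap, and vehicle replicate 3 lay furthest out. The log2 difference was -0.64 ± 0.20 (SE) without the block and -0.64 ± 0.14 with it, where the adjusted p in limma was 0.204. The geometric mean of its within-pair FPKM ratios, taken without the added 1 FPKM, was 0.541. In replicate 4 Ndufb2 had 0.362 FPKM with S100A8/A9 and 0.546 FPKM with vehicle, an estimated 68 and 98 reads, so the direction was the same at a lower level. On the scale with 1 FPKM added, it was the only member of the 75 with an estimate past 1.5-fold. On that scale this rested on vehicle replicate 3, without which the log2 difference was -0.42 with group only. The added 1 FPKM shrinks differences at such levels. The plain FPKM ratios of Ndufb2 were 0.654, 0.605 and 0.401 in pairs 1 to 3 and 0.662 in pair 4. Leaving out both libraries of number 3 gave -0.46 with the block. It was not called under any setting that tested it, which leaves out the filter of 5 FPKM.

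On the other side in complex I, Ndufb10 (ENSMUSG00000040048, chr17:24722060-24724478, minus strand), also a membrane-arm accessory subunit, had 23.3, 26.2 and 25.7 FPKM in S100A8/A9 replicates 1 to 3, against 20.3, 21.6 and 21.2 FPKM in vehicle replicates 1 to 3. The groups did not overlap, yet the adjusted p with the block was 0.296 in limma for a log2 difference of 0.24 ± 0.062 (SE). Replicate 4 had 34.3 FPKM with S100A8/A9 and 34.7 FPKM with vehicle, the opposite direction. Ndufs6, a zinc-binding accessory subunit, had 12.6, 9.996 and 11.1 FPKM with S100A8/A9, against 9.78, 9.88 and 8.94 FPKM with vehicle (limma with block, adjusted p = 0.628). Ndufb4 had the widest vehicle spread in the complex, with 7.34, 6.48 and 7.24 FPKM with S100A8/A9 and 8.70, 6.17 and 4.13 FPKM with vehicle.

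In complex III no gene separated the groups. Uqcr11, a small subunit of the complex, had the most negative estimate and the widest vehicle spread, with 17.98, 16.6 and 14.6 FPKM in S100A8/A9 replicates 1 to 3 and 21.8, 18.9 and 14.4 FPKM in vehicle replicates 1 to 3. Its log2 difference was -0.14 ± 0.078 (SE, with block), with an adjusted p of 0.763 in limma. Uqcrfs1 had the most positive one, at 0.059 ± 0.067 (limma with block, adjusted p = 0.896).

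Among complex IV genes, Cox6b1 (chr7:30616861-30626151, minus strand), a subunit on the side facing the intermembrane space, had 75.5, 81.8 and 70.3 FPKM in S100A8/A9 replicates 1 to 3, against 84.6, 83.7 and 83.3 FPKM in vehicle replicates 1 to 3. Replicate 4 gave 153 FPKM with S100A8/A9 and 173 FPKM with vehicle. The 4 vehicle values were each above their S100A8/A9 partner, by a log2 difference of -0.15 ± 0.062 (SE) over replicates 1 to 3 (limma with block, adjusted p = 0.650). Cox7a2 had 23.0, 21.2 and 22.7 FPKM with S100A8/A9, against 23.3, 26.7 and 23.2 FPKM with vehicle. The groups did not overlap, by a small margin, and vehicle replicate 2 lay furthest out. The low testis form Cox6b2 had the most positive estimate of all members at 0.39 ± 0.15, from 3.66, 2.84 and 1.29 FPKM with S100A8/A9 and 2.23, 1.47 and 1.26 FPKM with vehicle, and was just lower with S100A8/A9 in replicate 4, at 2.81 FPKM against 2.92 FPKM (limma with block, adjusted p = 0.578).

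For ATP synthase, Atp5g3 had 59.4, 56.8 and 55.3 FPKM in S100A8/A9 replicates 1 to 3, against 52.7, 53.2 and 47.3 FPKM in vehicle replicates 1 to 3. The groups did not overlap, with a log2 difference of 0.16 ± 0.058 (SE; limma with block, adjusted p = 0.529), and replicate 4 had 64.5 FPKM with S100A8/A9 and 64.6 FPKM with vehicle. Atp5k, subunit e of the membrane part, had the most negative estimate at -0.17 ± 0.10, from 12.1, 17.2 and 16.0 FPKM with S100A8/A9 and 16.7, 18.8 and 15.4 FPKM with vehicle, which overlapped. Atp5s had 1.86, 1.03 and 1.82 FPKM with S100A8/A9 and 2.34, 0.663 and 0.728 FPKM with vehicle, with an estimated 32 to 116 reads in the vehicle libraries. Its log2 difference of 0.26 ± 0.20 is the most positive of the complex and the widest in interval.

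In all, 4 of 75 members were higher in every S100A8/A9 library of replicates 1 to 3 than in every vehicle library (Ndufb9, Ndufb10, Ndufs6 and Atp5g3), where 4.71% of all genes were. All 4 were lower with S100A8/A9 in replicate 4. Another 4 were lower without overlap (Ndufb2, Ndufb3, Cox6b1 and Cox7a2), where 1.94% of all genes were, and Ndufb3 was higher in replicate 4. Ndufb9 shares 19.5% of its exon bases with the gene model Gm49356 on the same strand. In all 11 members share more than 10% of their exon bases with another gene, most on the other strand, and the labels state no strand for the counting, so such reads may not be separable. The symbols also matched 12 pseudogenes and other models not counted as members, and reads of near-identical copies may have been split between them and the members.

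**Figure D4:**
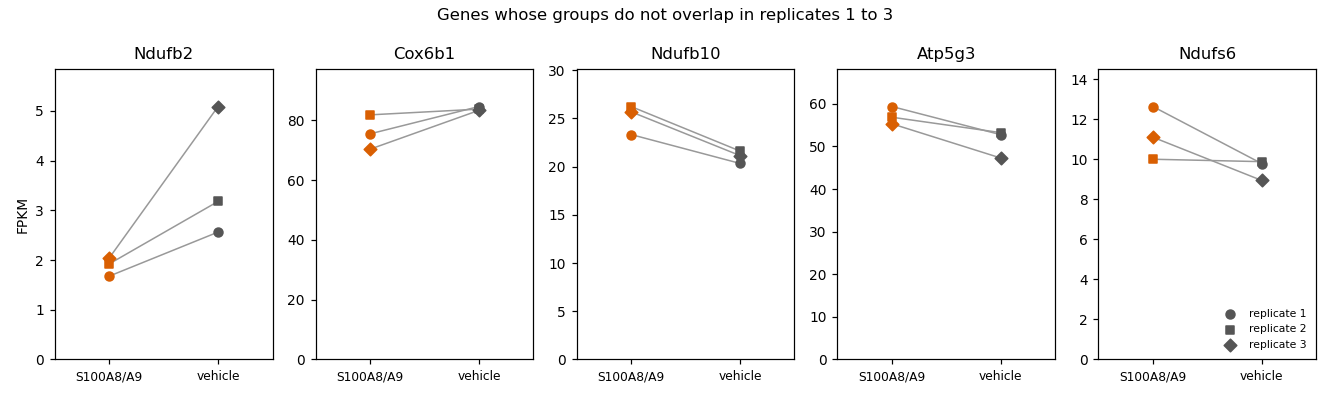
FPKM of 5 genes whose groups do not overlap in replicates 1 to 3, with S100A8/A9 left of vehicle, lines joining libraries of the same replicate number and axes starting at 0. Ndufb2 and Cox6b1 are lower with S100A8/A9 and Ndufb10, Atp5g3 and Ndufs6 higher, and in Ndufb2 the vehicle values range from 2.56 to 5.09 FPKM.

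The numbered libraries differed more from each other than the treatments did for some members. Same-numbered libraries of both groups deviated together over all genes, and the replicate number itself, tested as a term in limma after the data had been seen, was called for 5 of 75 members (6.67%), beside 12.7% of all genes. Cox7a2l (chr17:83501918-83517330, minus strand) had 47.1, 61.1 and 82.9 FPKM in S100A8/A9 replicates 1 to 3 and 48.2, 64.2 and 76.9 FPKM in vehicle replicates 1 to 3 (limma, adjusted p = 0.00651). Libraries of 1 number were thus close to each other and the numbers far apart. Ndufa6, an accessory subunit that binds the acyl carrier protein, had 16.6, 24.3 and 30.3 FPKM with S100A8/A9 and 18.7, 23.7 and 25.2 FPKM with vehicle (adjusted p = 0.0323 in limma). Ndufa12 ran the other way, with 10.5, 9.44 and 6.17 FPKM with S100A8/A9 and 13.9, 9.91 and 8.27 FPKM with vehicle (adjusted p = 0.0263 in limma). The remaining pair were Ndufs3, a core subunit, and Cox6a2, with adjusted p of 0.0410 and 0.0223 in limma.

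Cell-type markers differed between the same numbers. Summed macrophage markers were at 1181, 925 and 940 FPKM in S100A8/A9 replicates 1 to 3 and 1118, 910 and 826 FPKM in vehicle replicates 1 to 3. Their mean log2(FPKM + 1) per gene fell from 6.09 to 5.36 and 4.90 with S100A8/A9. With vehicle it fell from 5.98 to 5.28 and 4.79. Summed neutrophil markers were at 126, 135 and 226 FPKM with S100A8/A9 and 125, 128 and 235 FPKM with vehicle, highest in replicate 3. Summed erythroid markers were at 4.67, 7.63 and 115 FPKM with S100A8/A9 and 3.21, 9.66 and 129 FPKM with vehicle, with 4 of 8 genes tested. Replicate 3 thus stood far above the others in erythroid markers, in both groups. The 13 subunits encoded in mitochondrial DNA summed to 20993, 16649 and 14605 FPKM with S100A8/A9 and 21181, 16293 and 15252 FPKM with vehicle. The part of these in the differences between numbers was not tested.

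**Figure D5:**
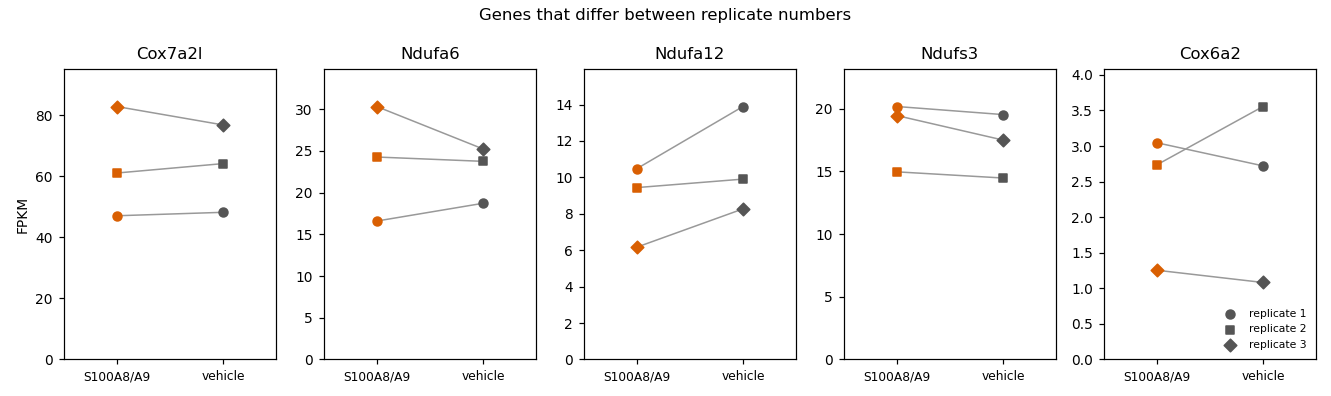
FPKM of the 5 subunit genes called for the replicate number, with S100A8/A9 left of vehicle, symbols for replicates 1 to 3, lines joining libraries of the same number and axes starting at 0. In Cox7a2l replicate 3 stands highest in both groups, at 82.9 FPKM with S100A8/A9 and 76.9 FPKM with vehicle.

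Levels also differed between the tables. Vehicle replicate 4 was more than 2-fold from the mean of vehicle replicates 1 to 3 for 28 of 75 members (37.3%), beside 27.6% of 11155 genes, with 21 higher and 7 lower in the second table. Past 4-fold were Uqcrfs1 (62.8 FPKM in vehicle replicate 4 against a mean of 13.3 FPKM), Ndufa1 (67.0 against 13.4 FPKM), Atp5o (4.99 against 42.5 FPKM) and Ndufb2 (0.546 against 3.61 FPKM). The S100A8/A9 library of replicate 4 stood with its vehicle partner in each, at 59.2, 62.2, 4.24 and 0.362 FPKM in the same order of genes. Replicate 4 is also a separate library in each group, so table and library cannot be told apart. Levels can therefore be compared within a table and not across tables.

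Genes that work with these subunits had 0 calls, where 0% of all tested genes were called with group only and 0.518% with the block. At so low a share, 0 calls in short lists says little about these genes. Complex II, which feeds electrons from succinate, had all 4 subunits tested and 0 called in either fit, with a median log2 difference of 0.067. Sdha, its flavoprotein, had 33.7, 31.7 and 30.8 FPKM in S100A8/A9 replicates 1 to 3 and 33.8, 31.0 and 30.2 FPKM in vehicle replicates 1 to 3. Sdhb, the iron-sulfur subunit, averaged 33.3 ± 3.56 FPKM with S100A8/A9 and 31.1 ± 4.54 FPKM with vehicle, and the membrane anchors Sdhc and Sdhd 12.1 ± 1.82 and 31.6 ± 2.75 FPKM with S100A8/A9 and 11.1 ± 1.42 and 30.8 ± 1.66 FPKM with vehicle (SD, n = 3 each). Of 4 electron carriers tested, including Cycs, the somatic cytochrome c, 0 were called.

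The same 0% and 0.518% of all tested genes stand beside the counts that follow. Assembly factors were uncalled in both fits, with 0 of 16 for complex I, 0 of 5 for complex III, 0 of 22 for complex IV and 0 of 5 for ATP synthase with its inhibitor. Their median log2 differences were 0.022, -0.092, 0.021 and -0.0095 in that order. Of 12 related subunits and factors outside the symbols 0 were called, with a median of -0.032. Of 12 mitochondrially encoded subunits tested 0 were called, with a median of -0.030. Sco2, a copper chaperone for complex IV, stood out within these lists and was chosen after its values were seen. It had 3.48, 5.54 and 4.77 FPKM with S100A8/A9, against 2.24, 1.51 and 3.58 FPKM with vehicle, which overlapped (log2 difference 0.73 ± 0.21 SE, limma with block, adjusted p = 0.358).

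Regulators of mitochondrial gene expression had 0 of 13 called, beside the same 0% and 0.518% of all tested genes. Their median log2 difference was 0.028. The factors whose words were searched in the promoters had similar levels in both groups. Nrf1 had 4.12, 3.86 and 4.24 FPKM in S100A8/A9 replicates 1 to 3 and 4.67, 3.67 and 3.52 FPKM in vehicle replicates 1 to 3. Gabpa, the DNA-binding subunit of GABP, had 8.90, 8.50 and 8.90 FPKM with S100A8/A9 and 8.80, 8.07 and 8.53 FPKM with vehicle, and its exons overlap 12.7% of those of Atp5j. Yy1 had 7.11, 8.40 and 9.09 FPKM with S100A8/A9 and 7.97, 9.46 and 9.40 FPKM with vehicle. The coactivator Ppargc1a, a known driver of mitochondrial biogenesis in muscle and brown fat, did not exceed 0.0885 FPKM in any of the 8 libraries. Its relative Pprc1 was the gene nearest to a call, with 13.6, 20.7 and 21.6 FPKM with S100A8/A9 and 12.0, 18.2 and 18.1 FPKM with vehicle, higher in all 4 pairs (limma with block, adjusted p = 0.443).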

How the data were processed

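Per the labels' protocols, libraries were made from oligo(dT)-selected RNA with random primers for Illumina sequencing, with no strand marking stated. The tools in the submitters' processing notes are DESeq2 1.34.0, Subread, featureCounts and HISAT2, with mm10 as the build and no roles given. The deposited values are taken as FPKM per gene, in 2 separately made tables. Neither labels nor headers state this unit, which rests on the values of replicate 4 and is assumed for replicates 1 to 3. Read estimates for replicates 1 to 3 share this assumption. In replicate 4, 98.8% (S100A8/A9) and 98.5% (vehicle) of the low values, worth up to 20 reads, came out whole to within 0.01 of a read, against 4.08% to 4.55% in replicates 1 to 3, so the tables differ in how they were made and only rough depths could be had for replicates 1 to 3. FPKM sums were 282921 to 303660 in replicates 1 to 3, and 331268 (S100A8/A9) and 344166 (vehicle) in replicate 4.

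From these values, log2(FPKM + 1) of replicates 1 to 3 was fitted with limma 3.58.1 (trend, R 4.3.3), group as the only term, over the 11387 genes that reached 1 FPKM in 3 or more of these 6 libraries. All 75 members passed this filter. Genes were called at a two-sided Benjamini-Hochberg adjusted p under 0.05 over all genes. No count model was used, as the values are not counts. Same-numbered libraries deviated together from their group means (correlations over genes 0.595, 0.254 and 0.520, against -0.531 to -0.010 for different numbers), so libraries of 1 number were treated as pairs, on the strength of the data and not of the labels, and the fit with the replicate block is given beside. Deviations from a group mean cancel out within the group, so the negative correlations partly follow from the positive ones and are no separate contrast. The fit was tested on simulated data. Alternatives were other scalings, pseudocounts and filters, all 8 libraries, and leaving out each library or number. Gene positions, overlaps and start codons came from GENCODE on GRCm38, and promoters from RefSeq GRCm38.p6.

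Members and gene lists were chosen with earlier results of these data known. Named in each complex were the genes with the highest and lowest vehicle mean, the most positive and negative difference and the widest vehicle spread. Also named were the alternative-subunit families, the genes at the threshold, complex II and the regulators. Genes named for no overlap, for their pairs, for the replicate number or for a difference between tables were chosen after their values were seen. Where replicate 4 gives no value for a gene, it is not given here. Processed pseudogene copies of these genes can share their reads.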

Additional observations from a re-analysis of the deposited data

Results flagged for a closer look

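Over the 4 within-pair differences (S100A8/A9 minus vehicle, log2(FPKM + 1)), 30 items were examined for 1 pair standing far from the other 3, and 3 met the limit, where chance alone gives about 1 in 20. Atp5b, the catalytic subunit of ATP synthase, differed by 0.0698 in pair 3 and by -0.013, -0.0083 and -0.00051 in pairs 1, 2 and 4. Cox7a2, of complex IV, differed by -0.323 in pair 2 and by -0.018, -0.029 and -0.068 in pairs 1, 3 and 4. The median of the 17 ATP synthase genes was 0.16 in pair 3 and -0.024, -0.022 and -0.038 in pairs 1, 2 and 4. Over all tested genes the medians were -0.0064, 0.0063, 0.079 and 0.016 in pairs 1 to 4, so pair 3 was the highest there too. Replicate 4 comes from the separately made table. The reason for these values was not tested.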

How the results depend on the processing

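No member was called under the main fit or any of 24 other settings, of which the filter of 5 FPKM tested 68 of the 75. Over all tested genes, 0 were called with group only and 59 with the replicate block. With group only and 1 library left out, 0 to 1 were called, the 1 without vehicle replicate 2. With the block, leaving out replicates 1, 2 and 3 gave 42, 95 and 5. The block gave 39 after scaling to a common sum, 3 after each of median-of-ratios, upper-quartile and quantile scaling, and 0 without the filter on low values. The scaled and unfiltered block fits were added after seeing the data. The median over all members was -0.052 under quantile normalization, with and without the block, against 0.0049 as reported. That of complex IV was 0.053 with the block and without replicate 2. Leaving out 1 library or number moved the medians from -0.028 to 0.044 for all members, -0.031 to 0.019 for complex I, -0.092 to 0.0063 for complex III, -0.017 to 0.053 for complex IV and -0.023 to 0.065 for ATP synthase. Of 25 named members, 14 took the other sign under some setting, and Atp5g3, Atp5k, Atp5s, Cox4i1, Cox6b1, Cox6b2, Cox7a2, Ndufb2, Ndufb10, Ndufs4 and Uqcr11 kept theirs in every setting that tested them. The filter of 5 FPKM did not test Atp5s, Cox6a2, Cox6b2, Cox7a1, Ndufb2 and Ndufs4. The replicate number was called for 5 members as deposited and for 6 to 7 under the other scalings. The block changed no call among the members. The cause of these shifts was not tested. Depth limits the lowest members, with Cox7a1 resting on an estimated 7.33 to 17.3 reads per S100A8/A9 library and 11.6 to 15.8 per vehicle library.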
